A study of Rattus norvegicus with 2 samples.

Results

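The 31 genes described here make, move, store and export cholesterol. They were taken from a fixed list by gene symbol, and all 31 were found once each among the 32883 genes of the single-cell count tables. Of these, 19 encode enzymes of cholesterol synthesis (8 of the mevalonate part and 11 of the sterol part), 4 control the pathway, 3 move cholesterol inside the cell, 3 export or carry it, and 2 esterify or hydroxylate it. The hypothalamus, with the anteroventral periventricular and arcuate areas, came from female Sprague Dawley rats on PND 29 (4 weeks of age). SC300 rats carried a silicone capsule with 300 µg estradiol benzoate, implanted under the skin on PND 0.5. Control rats are labelled intact, and the study's methods give them a capsule filled with sesame oil on the same day. The design text of the series names only the vehicle for the SC300 capsule, whereas the sample title and the methods name the estradiol benzoate. Tissue from 3 rats per group was pooled before collagenase dissociation, so each group is 1 library and no test between groups was possible. Differences are therefore given with 95% intervals that cover counting error only and say nothing of the spread between rats.

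The libraries were alike in size, with 4296 Control and 4379 SC300 cells that had at least 200 detected genes, and a median of 7986 and 8182 UMIs per cell (a UMI, or unique molecular identifier, marks a captured mRNA molecule). Each cell was given a type from marker genes that are not members, and 10 types with at least 50 cells in each library were compared. Among them, the endothelial and mural mixture holds barcodes with similar marker scores for both, and doublets in it were not told apart. Check markers, not used to assign the type they mark, were highest in that type when summed, with 2 exceptions. The tanycyte check markers were higher in ependymal cells (4195 CPM in Control) than in tanycytes (3296 CPM). The tanycyte label rested mostly on *Crym*, with 8547 of the 10428 assigning-marker UMIs of Control tanycytes and 9627 of 10857 in SC300. *Rax* had 16 and 18 UMIs there. The same markers divide tanycytes from ependymal cells. Those of newly formed oligodendrocytes (NFO) were about as high in oligodendrocyte precursors (OPC) as in NFO (4326 and 4274 CPM in Control). The OPC and NFO check lists share *Olig1* and *Sox10*. A level is given as CPM, the UMIs of a gene per 1000000 UMIs of all cells of that type in that library. Because molecules were counted at the 3′ end, CPM does not scale with transcript length. Fewer cells of a type do not change its CPM, but RNA set free during dissociation reaches all droplets. Levels of *Apoe* are therefore given beside the markers of astrocytes. Low levels of the other genes were not corrected, and RNA carried in from other cells may be part of them.

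Cholesterol is built from acetyl-CoA through mevalonate and squalene, and the last steps turn lanosterol into cholesterol. Brain cholesterol is made locally, because lipoproteins of the blood do not cross the blood-brain barrier, and oligodendrocytes need it for myelin. The transcription factor SREBP2, encoded by *Srebf2*, is held in the endoplasmic reticulum by SCAP and the INSIG proteins while sterols are plentiful, and switches on the synthesis genes when they are scarce. Astrocytes load cholesterol onto apolipoprotein E through the exporters ABCA1 and ABCG1, and neurons remove it as 24-hydroxycholesterol made by CYP46A1.

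Promoters of 4 members are shown because these genes bear on the main comparisons below, namely 2 synthesis enzymes that were highest in mature oligodendrocytes (*Fdps*, *Hmgcs1*), the feedback gene *Insig1* and the regulator *Srebf2*. Each runs from 250 bases before to 50 bases after the RefSeq start of the gene, read 5′ to 3′ on the strand of the gene, and capitals mark CCAAT on either strand (ATTGG on the strand shown). The windows are *Fdps* at GRCr8 chr2:176804767-176805066, minus strand; *Hmgcs1* at GRCr8 chr2:53382054-53382353, plus strand; *Insig1* at GRCr8 chr4:8057720-8058019, minus strand; *Srebf2* at GRCr8 chr7:115543057-115543356, plus strand.
Fdps: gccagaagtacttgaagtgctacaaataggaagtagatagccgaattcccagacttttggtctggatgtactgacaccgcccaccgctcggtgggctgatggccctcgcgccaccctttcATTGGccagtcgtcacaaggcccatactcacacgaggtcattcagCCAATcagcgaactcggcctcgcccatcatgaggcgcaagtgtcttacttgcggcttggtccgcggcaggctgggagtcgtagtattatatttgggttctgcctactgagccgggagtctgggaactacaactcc
Hmgcs1: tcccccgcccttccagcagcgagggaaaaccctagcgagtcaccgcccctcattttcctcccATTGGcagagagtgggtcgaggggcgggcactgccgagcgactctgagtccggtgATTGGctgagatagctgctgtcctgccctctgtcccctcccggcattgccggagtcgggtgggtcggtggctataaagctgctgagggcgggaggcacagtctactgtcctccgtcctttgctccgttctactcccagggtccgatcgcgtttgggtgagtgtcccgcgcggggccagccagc
Insig1: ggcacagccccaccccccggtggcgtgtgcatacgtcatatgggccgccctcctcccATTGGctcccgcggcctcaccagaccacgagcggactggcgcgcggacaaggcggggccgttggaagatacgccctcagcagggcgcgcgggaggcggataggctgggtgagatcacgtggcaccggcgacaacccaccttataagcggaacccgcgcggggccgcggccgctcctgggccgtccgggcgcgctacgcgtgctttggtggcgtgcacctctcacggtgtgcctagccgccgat
Srebf2: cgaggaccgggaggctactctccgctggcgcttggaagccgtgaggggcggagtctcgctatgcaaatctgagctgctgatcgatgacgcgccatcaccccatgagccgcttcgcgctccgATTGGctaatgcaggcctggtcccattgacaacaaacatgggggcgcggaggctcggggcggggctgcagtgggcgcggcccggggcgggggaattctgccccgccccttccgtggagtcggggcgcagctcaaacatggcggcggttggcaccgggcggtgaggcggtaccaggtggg

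CCAAT is the core of the site bound by the factor NF-Y. It was found in the window of 20 of the 26 members that have one, against 39.6% of the 27457 genes with a window, and *Fdps* and *Hmgcs1* each held 2 matches. The GC box GGGCGG, on either strand, was found in 22 of the 26 members and in 36.0% of all genes. The sterol regulatory element in its textbook form TCACNCCAC, on either strand, was in none of the 26 members and in 1.25% of all genes, which says only that these letters are not in these windows. No window was given for *Pmvk*, *Fdft1*, *Sqle*, *Stard4* and *Abcg1*.

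Expression of the synthesis genes was highest in mature oligodendrocytes. Summed over the 19 synthesis genes, the level in mature oligodendrocytes was 7570 CPM in Control and 7563 CPM in SC300. NFO followed with 3987 and 4255 CPM, and astrocytes with 3054 and 2806 CPM. By the median per cell, however, NFO had 1293 and 1212 CPM, below astrocytes (2627 and 2325 CPM) and OPC (1381 and 1343 CPM). OPC had 1527 and 1508 CPM, and neurons had 1367 and 1325 CPM. The remaining types lay between 666 and 870 CPM. There the intervals of neighbours in the order overlapped in Control, such as tanycytes (870 CPM, 836 to 906) and ependymal cells (853 CPM, 819 to 888), whereas in SC300 ependymal cells (848 CPM, 805 to 893) lay just above tanycytes (768 CPM, 733 to 804.5). Mature oligodendrocytes thus stood 2.48-fold above astrocytes in Control and 2.70-fold in SC300, and astrocytes stood above neurons by 1.16 on the log2 scale (1.13 to 1.19) in Control and 1.08 (1.06 to 1.11) in SC300. Mature oligodendrocytes held 15.4% of all UMIs in Control but 45.7% of the synthesis UMIs, and 19.4% and 53.8% in SC300.

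**Figure D1:**
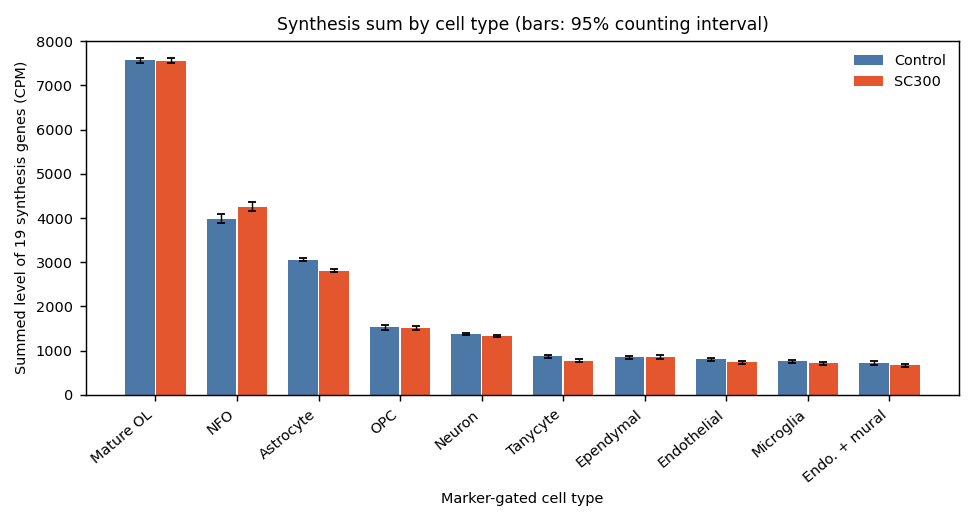
Summed CPM of the 19 synthesis genes (vertical axis, linear from 0) in each of the 10 cell types (horizontal axis, ordered by the Control level), with blue bars for Control, red bars for SC300 and whiskers for the 95% counting interval. Mature oligodendrocytes (OL) stand at 7570 and 7563 CPM, and the lowest type, the endothelial and mural mixture, at 721 and 666 CPM.

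Within NFO the synthesis sum was higher in cells with a higher level of mature oligodendrocyte markers. NFO cells of both libraries were ranked by the summed level of mature oligodendrocyte markers, none of them a member, and divided into 3 groups of equal size, a division chosen after values had been seen. In Control the synthesis sum was 1046 CPM (940 to 1162) in the 38 cells with the lowest marker level, 1699 CPM (1588 to 1817) in the 47 cells of the middle group and 7828 CPM (7597 to 8065) in the 44 cells of the high group. In SC300 the values were 941, 1741 and 8100 CPM in 48, 38 and 41 cells. The low group therefore lay below OPC and the high group at or above mature oligodendrocytes in both libraries. Between the middle and the high group *Hmgcs1*, which makes HMG-CoA, went from 137 to 1008 CPM in Control and from 151 to 1151 CPM in SC300, and it was higher still in mature cells. *Insig1*, which holds SREBP2 back, went from 85.3 to 747 CPM in Control and from 99.9 to 644 CPM in SC300, but was 305 and 307 CPM in mature cells, so its highest level lay in the high NFO group. The same held for *Fdps* (1485 and 1489 CPM, against 1205 and 1229 CPM in mature cells) and *Idi1* (1332 and 1398, against 818 and 876 CPM). It also held for *Msmo1* (981 and 1002, against 735 and 792 CPM) and *Sqle* (789 and 742, against 624 and 688 CPM), with overlapping *Sqle* intervals in SC300. *Cyp51* and *Pmvk*, like *Hmgcs1*, were higher in mature cells. In Control NFO, 3 cells held 28.6% of the *Insig1* UMIs. *Ggps1*, which makes geranylgeranyl diphosphate for protein prenylation, did not share the rise from the middle to the high group. It had 27.8 and 19.8 CPM in the middle and high groups of Control and 28.9 and 30.6 CPM in SC300.

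**Figure D2:**
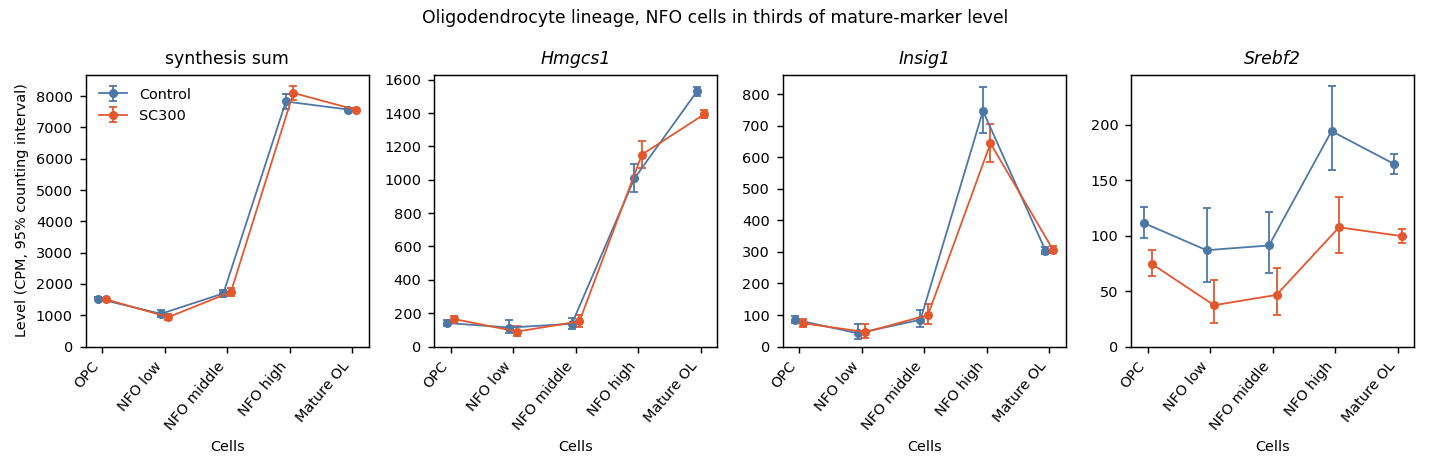
Level in CPM (vertical axes, linear from 0) along the oligodendrocyte lineage, from OPC through NFO cells with low, middle and high mature-marker level to mature oligodendrocytes (OL), with points for each library and whiskers for the 95% counting interval. The synthesis sum goes from 1699 to 7828 CPM between the middle and the high NFO group of Control, and the SC300 points of *Srebf2* lie below the Control points at every step.

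With NFO taken whole, 5 of the 8 enzymes of the mevalonate part in Control and 4 in SC300 were highest in mature oligodendrocytes. *Hmgcs1* had 1529 CPM there in Control and 1393 CPM in SC300, against 56.1 CPM in the endothelial and mural mixture of Control and 63.2 CPM in tanycytes of SC300, the lowest values. *Fdps*, which makes farnesyl diphosphate, had 1205 and 1229 CPM in mature oligodendrocytes and was lowest in ependymal cells (57.9 and 67.8 CPM). The isomerase *Idi1* had 818 and 876 CPM in mature oligodendrocytes and was also lowest in ependymal cells (69.0 and 51.4 CPM). *Pmvk*, a kinase of the mevalonate chain, had 370 and 324 CPM there, and here neurons came next with 148 and 157 CPM, above astrocytes (59.4 and 52.6 CPM), while microglia were lowest (23.8 and 31.2 CPM). *Ggps1* differed little among types, from 14.6 CPM in endothelial cells to 36.1 CPM in OPC of Control, and from 11.7 CPM in endothelial cells to 30.4 CPM in neurons of SC300. *Acat2*, which joins 2 acetyl-CoA and whose reads may be shared with the near copy *Acat2l1*, was low everywhere, with at most 10.0 CPM (astrocytes, Control) and 9.95 CPM (tanycytes, SC300), no UMI in Control microglia and 0.466 CPM in the mixture of SC300. The decarboxylase *Mvd* was highest in NFO with 4.31 and 8.16 CPM from 6 and 13 UMIs, had no UMI in the Control mixture and was lowest in microglia of SC300 (0.281 CPM). *Mvk*, the first kinase, had only 31 and 49 UMIs in all cells and was not compared between libraries. Its highest level rested on 10 UMIs in mature oligodendrocytes of Control (1.27 CPM) and 4 UMIs in the mixture of SC300 (1.87 CPM), and several types held none.

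In the sterol part, again with NFO taken whole, 10 of 11 enzymes were highest in mature oligodendrocytes in both libraries. *Cyp51*, the lanosterol demethylase, had 1132 and 1129 CPM there and 27.2 and 35.6 CPM in ependymal cells, the lowest type. *Msmo1*, a methyl sterol oxidase, had 735 and 792 CPM in mature oligodendrocytes, but astrocytes came close with 611 and 561 CPM, and the mixture was lowest (70.7 and 73.2 CPM). *Sqle*, which oxidises squalene, had 624 and 688 CPM in mature oligodendrocytes and was the leading synthesis gene of ependymal cells, where its 317 and 322 CPM made up 37.1% and 37.9% of the synthesis sum. Its lowest values were 31.1 CPM in Control endothelial cells and 28.0 CPM in the mixture of SC300. Squalene synthase, *Fdft1*, had 331 and 342 CPM in mature oligodendrocytes against 27.9 CPM in Control ependymal cells and 22.4 CPM in the SC300 mixture. The desaturase *Sc5d* had 299 and 264 CPM there and was lowest in microglia (16.4 and 10.1 CPM).

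The other sterol enzymes were at lower levels. *Tm7sf2*, a sterol reductase, had 239 and 248 CPM in mature oligodendrocytes, and was lowest in Control microglia (27.9 CPM) and SC300 ependymal cells (26.3 CPM). The isomerase *Ebp* had 108 and 104 CPM, with the lowest values in Control OPC (12.0 CPM) and SC300 ependymal cells (14.0 CPM). *Nsdhl*, a sterol dehydrogenase, had 77.9 and 79.2 CPM against 7.51 CPM in Control ependymal cells and 4.76 CPM in SC300 tanycytes. Lanosterol synthase, *Lss*, had 34.8 and 25.4 CPM and was lowest in microglia (2.05 and 2.25 CPM), and *Hsd17b7*, a sterol ketoreductase, had 16.2 and 14.5 CPM and was lowest in tanycytes (0.714 and 0.865 CPM). For *Lss* in SC300 and *Hsd17b7* in both libraries the gap to the second type lay within counting error. *Dhcr7*, which closes the pathway, was the exception, with its highest level in astrocytes (21.9 and 21.8 CPM), although NFO were within counting error of that (19.4 and 18.8 CPM). It had no UMI in the Control mixture and was at 0.865 CPM in SC300 tanycytes.

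Among the regulators, *Srebf2* in Control ranged from 77.9 CPM in ependymal cells to 165 CPM in mature oligodendrocytes, with astrocytes at 163 CPM, and in SC300 from 45.4 CPM in tanycytes to 144 CPM in astrocytes. *Scap*, the escort of SREBP2, was highest in astrocytes (128 and 119 CPM), followed by ependymal cells (103 and 93.5 CPM), and lowest in microglia (24.9 and 25.03 CPM). *Insig1* was highest in NFO (339 and 319 CPM), although in SC300 mature oligodendrocytes lay within counting error of it, and was lowest in tanycytes (24.3 and 16.4 CPM). The related *Insig2* was low, with 29.4 CPM in NFO of Control, 22.49 CPM in microglia of SC300 and the lowest values in ependymal cells (5.00 and 6.43 CPM).

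The transport genes did not all share a pattern. *Npc2*, the lysosomal protein that binds cholesterol, was by far highest in microglia with 3514 and 3123 CPM, followed by mature oligodendrocytes (350 and 335 CPM), and lowest in neurons (68.3 and 76.0 CPM). It was detected in 99.6% of Control and 100% of SC300 microglia. *Npc1*, its membrane partner in the lysosome, was instead highest in mature oligodendrocytes (140 and 119 CPM) and lowest in neurons (11.3 and 12.3 CPM). *Stard4*, a carrier between membranes, was highest in vascular cells, with 29.3 CPM in endothelial cells of Control and 17.3 CPM in the mixture of SC300, and had no UMI in tanycytes of either library or in SC300 ependymal cells. *Apoe* reached 36860 and 37861 CPM in astrocytes and was lowest in neurons (325 and 269 CPM). *Abca1* was also highest in astrocytes (244 and 236 CPM) and lowest in neurons (6.63 and 5.34 CPM). *Abcg1*, by contrast, was lowest in astrocytes (2.58 and 1.61 CPM). It was highest in mature oligodendrocytes of Control (58.2 CPM) and in the mixture of SC300 (64.3 CPM), with OPC within counting error in both (52.6 and 57.5 CPM).

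The enzymes that store or remove cholesterol were rare. *Cyp46a1* was highest in neurons (19.96 and 15.7 CPM), followed by tanycytes (11.8 and 14.7 CPM), and in SC300 these types lay within counting error of each other. It was detected in 35.9% of Control and 30.3% of SC300 neurons (median depth 25794 and 25123 UMIs) and in 0.204% and 0% of microglia (6888.5 and 7472.5 UMIs). After thinning every cell to 2000 UMIs the shares were 2.77% and 2.11% of neurons, and 0 of 438 and 0 of 435 microglia, which allows up to 0.685% and 0.690% of microglia with a UMI at this depth and sets no limit on the share that expresses the gene. *Soat1*, which makes cholesteryl esters, was highest in astrocytes (6.36 and 8.33 CPM) and had 0.357 CPM in Control ependymal cells and 0.183 CPM in SC300 mature oligodendrocytes. Among neurons, those with *Slc17a6* (glutamatergic) had a synthesis sum of 1229 and 1167 CPM, below that of neurons with *Slc32a1*, *Gad1* or *Gad2* (GABAergic), at 1423 and 1364 CPM.

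**Figure D3:**
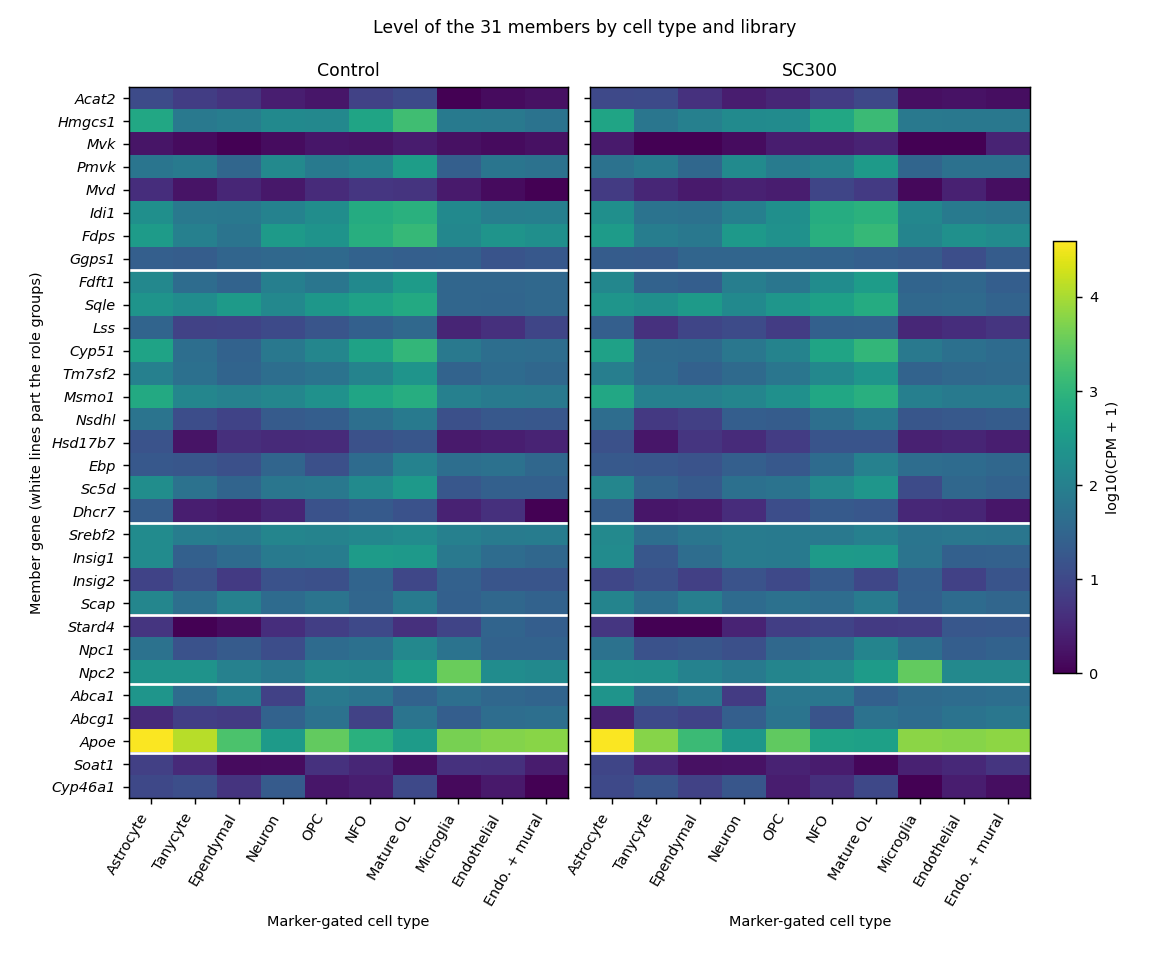
Level of each of the 31 members (rows, white lines between the role groups) in each of the 10 cell types (columns) of Control (left) and SC300 (right), as log10(CPM + 1) by colour. The column of mature oligodendrocytes is brightest for most synthesis genes, *Apoe* is brightest in astrocytes and *Npc2* in microglia, in both libraries.

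SC300 was then compared with Control within each type for every gene with at least 50 UMIs in both libraries together. A gene was counted as lower or higher when its CPM ratio was at least 1.5-fold and its interval lay on that side of 1. Of 238 pairs of a member and a type that reached this limit, 15 were lower in SC300 and 2 were higher. Over all genes, 2.84% of 80473 such pairs were lower and 2.54% were higher. After every cell was thinned to 2000 UMIs, 130 member pairs reached the limit, and 5 were lower and 3 higher. The share over all genes after thinning is not given here, so these thinned counts have no background beside them. The 15 lower pairs came from 7 members and the 2 higher pairs from 2 members, and 22 of the 31 members had no pair past the rule. No gene was tested, and cells of the same library share its preparation, so types are not replicates of each other.

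Tanycytes held the largest count, with 4 of 21 measured members lower, against 6.39% of all genes, and none higher, against 4.32%. Endothelial cells had 3 of 23 lower (2.70% of all genes) and none higher (3.72%). In NFO 2 of 23 were lower (2.18%) and none higher (1.83%), and in microglia 2 of 22 were lower (2.90%) and 1 higher (1.88%). Neurons had 1 of 27 lower (2.38%) and none higher (2.90%), mature oligodendrocytes 1 of 29 lower (1.89%) and none higher (2.34%), and ependymal cells 1 of 19 lower (4.36%) and none higher (2.04%). The endothelial and mural mixture had 1 of 23 lower (2.58%) and none higher (2.47%). In astrocytes none of 29 was lower (1.86%) and 1 was higher (2.38%), and in OPC none of 22 was lower (1.71%) or higher (1.32%). The median log2 ratio of the measured members was furthest from that of all genes in endothelial cells, at -0.19 against 0.01, and in tanycytes, at -0.19 against -0.04. In the other 8 types the medians of members and of all genes lay closer together.

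**Figure D4:**
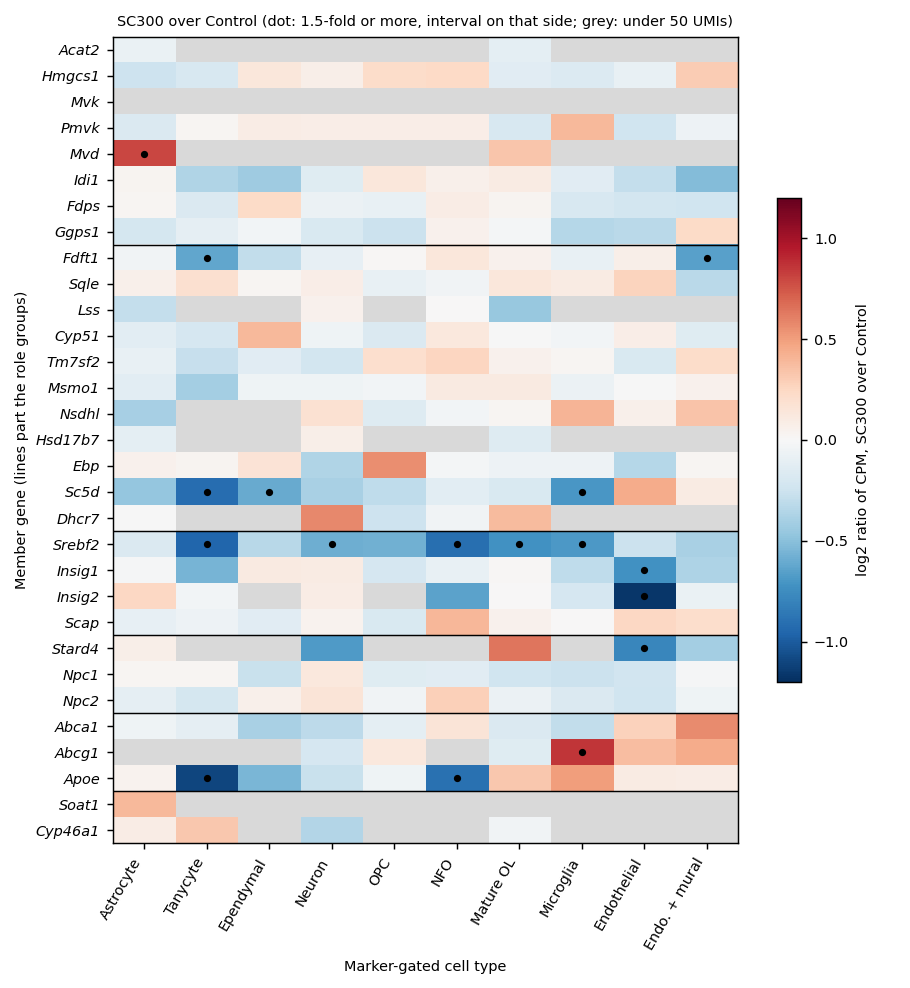
Log2 ratio of CPM, SC300 over Control, for each member (rows, lines between the role groups) and cell type (columns), blue for lower and red for higher in SC300, grey for pairs under 50 UMIs and black dots for pairs at least 1.5-fold apart with the interval on that side. The dots are 15 lower pairs, 5 of them in the row of *Srebf2* and 3 in that of *Sc5d*, and 2 higher pairs.

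The summed expression of the synthesis genes hardly differed between the libraries. The log2 ratio of the synthesis sum was -0.00 (-0.02 to 0.01) in mature oligodendrocytes and -0.12 (-0.14 to -0.10) in astrocytes. Neurons had -0.05 (-0.08 to -0.01), OPC -0.02 (-0.09 to 0.05) and ependymal cells -0.01 (-0.10 to 0.09). NFO had 0.09 (0.04 to 0.15), which became -0.10 when every cell was weighted alike. The furthest from 0 was that of tanycytes at -0.18 (-0.27 to -0.09), with microglia at -0.09 (-0.17 to -0.01), endothelial cells at -0.12 (-0.20 to -0.03) and the mixture at -0.12 (-0.23 to -0.00). No type came near a 1.5-fold difference. With cells limited to 10% mitochondrial UMIs, mature oligodendrocytes moved to 0.37 and endothelial cells to -0.52. The median share of mitochondrial UMIs was 10.5% in Control and 12.6% in SC300 mature oligodendrocytes.

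Over all cells of a library, however, the synthesis sum was higher in SC300, at 2728 CPM (2715 to 2742) against 2550 CPM (2536 to 2564). The share of cells that were mature oligodendrocytes was 8.71% in Control and 10.7% in SC300. Setting the SC300 levels of every class of cells at the Control mix of UMIs gave 2453 CPM, below Control, and the Control levels at the SC300 mix gave 2818 CPM. With 1 dissociation per group, a difference in the number of oligodendrocytes between the animals cannot be told apart from one in their recovery.

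*Srebf2* stood out by its breadth. It was lower in SC300 in all 10 types, and its interval lay below 0 in 8 of them. In mature oligodendrocytes it had 165 CPM in Control and 99.7 CPM in SC300 (1303 and 1091 UMIs), a log2 ratio of -0.73 (-0.84 to -0.61). Neurons had 124 and 82.3 CPM, or -0.59 (-0.70 to -0.47), and microglia 98.9 and 61.3 CPM, or -0.69 (-0.94 to -0.44). In tanycytes the levels were 87.8 and 45.4 CPM, or -0.95 (-1.29 to -0.62), and in NFO 131 and 70.3 CPM, or -0.90 (-1.25 to -0.56). These 5 types passed the 1.5-fold rule.

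In the other types the difference was smaller, with -0.57 (-0.86 to -0.29) in OPC, -0.39 (-0.74 to -0.03) in the mixture, -0.33 (-0.68 to 0.01) in ependymal cells, -0.26 (-0.54 to 0.03) in endothelial cells and -0.18 (-0.28 to -0.08) in astrocytes. Of the 4468 genes measured in all 10 types, 71 (1.59%) were lower in every type and 20 (0.448%) had an interval below 0 in at least 8, *Srebf2* among both. It was the only one of the 19 members measured in all 10 types to do either. Parts of these same cells also had the lower level, with 126 and 79.9 CPM in GABAergic and 113 and 81.1 CPM in glutamatergic neurons. So did each of the 3 groups of NFO cells. These parts are not independent of the values of the whole types. Among the genes governed by *Srebf2*, the sum of the synthesis enzymes in mature oligodendrocytes was 7570 and 7563 CPM, as given above, and *Insig1* had 305 and 307 CPM. In tanycytes the sum was 870 and 768 CPM, and *Insig1* had 24.3 and 16.4 CPM. The log2 ratio of the sum was -0.09 in microglia, -0.05 in neurons and 0.09 in NFO. Any link of these values with *Srebf2* was not tested. *Scap*, *Insig1* and *Insig2* passed the rule in neither direction in any of the 5 types named, although the interval of *Insig1* lay below 0 in microglia. After every cell was thinned to 2000 UMIs, *Srebf2* was lower in 9 of 10 types, and its interval lay below 0 in 6.

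**Figure D5:**
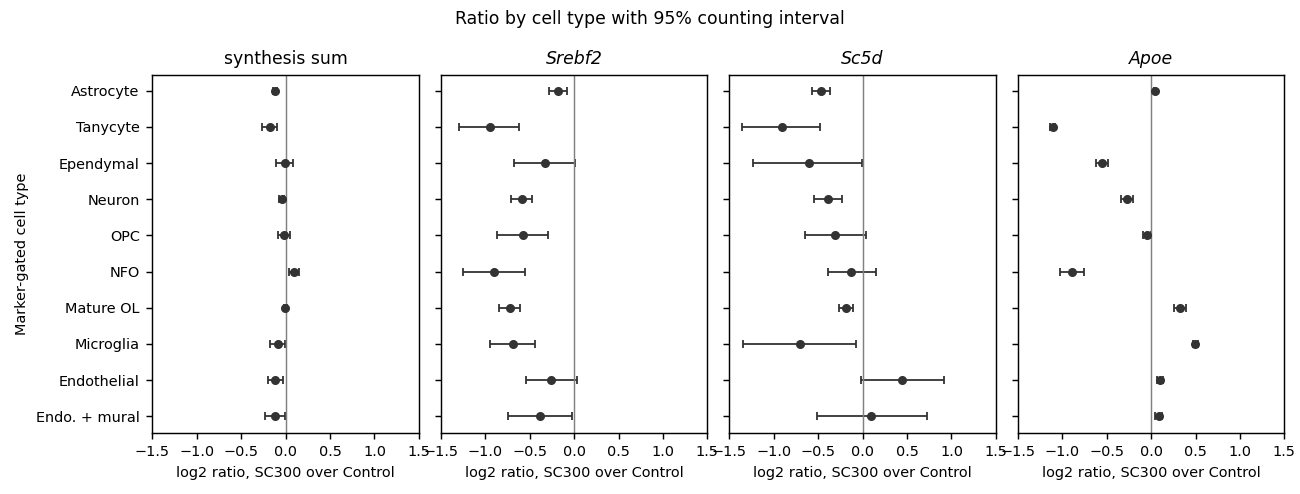
Log2 ratio of CPM, SC300 over Control (horizontal axes), with its 95% counting interval, in each of the 10 cell types (rows) for the synthesis sum, *Srebf2*, *Sc5d* and *Apoe*. The synthesis sum lies between -0.18 and 0.09, all 10 points of *Srebf2* lie below 0, and *Apoe* lies on either side.

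*Sc5d*, the desaturase late in the sterol part, passed the rule in 3 types. It had 52.8 CPM in Control and 28.1 CPM in SC300 tanycytes, a log2 ratio of -0.91 (-1.35 to -0.48), 29.3 and 19.3 CPM in ependymal cells, or -0.60 (-1.23 to -0.01), and 16.4 and 10.1 CPM in microglia, or -0.70 (-1.34 to -0.07). Its interval also lay below 0 in astrocytes (-0.47), neurons (-0.39) and mature oligodendrocytes, where it was highest (-0.18), but it was 24.5 and 33.4 CPM in endothelial cells, or 0.45 (-0.02 to 0.91). Of the genes measured in all types, 1.66% had an interval below 0 in at least 6. After thinning, *Sc5d* was lower in 9 of 10 types, but its interval lay below 0 in 1. The ependymal difference rested on 82 and 33 UMIs, was -0.26 when every cell was weighted alike and kept its interval below 0 in 3 of 11 alternative settings, and the microglial one was -0.12 after thinning. Thinning left 876000 and 870000 UMIs in microglia, so that last value rested on few *Sc5d* UMIs.

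*Idi1* passed the rule in no type, but its interval lay below 0 in 5, namely the mixture (-0.52), ependymal cells (-0.42), tanycytes (-0.36), endothelial cells (-0.29) and neurons (-0.14), and above 0 in mature oligodendrocytes, where it was highest. Of the 4468 genes measured in all types, 3.09% had an interval below 0 in at least 5. The other synthesis genes past the rule were *Fdft1* and *Mvd*. *Fdft1* had 42.1 and 27.3 CPM in tanycytes, or -0.63 (-1.09 to -0.17), and 35.0 and 22.4 CPM in the mixture, or -0.65 (-1.24 to -0.06). In mature oligodendrocytes, where it was highest, the ratio was 0.05 (-0.03 to 0.12). *Mvd* was higher in SC300 astrocytes, with 31 and 60 UMIs (3.08 and 5.37 CPM), or 0.80 (0.15 to 1.48), and it was 0.25 among cells with at most 10% mitochondrial UMIs and 0.29 when every cell was weighted alike. After thinning, *Fdft1* in tanycytes stood at 0.08 and no longer below 0, but with 452000 and 274000 UMIs left in tanycytes this rested on few *Fdft1* UMIs.

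For the remaining enzymes the ratio in the type with the highest level did not pass the 1.5-fold rule, and it was furthest from 0 for *Lss*. In mature oligodendrocytes the log2 ratio was -0.13 (-0.17 to -0.10) for *Hmgcs1*, -0.19 (-0.26 to -0.12) for *Pmvk*, 0.10 (0.05 to 0.14) for *Idi1* and 0.03 (-0.01 to 0.07) for *Fdps*. There the sterol enzymes had 0.14 (0.09 to 0.19) for *Sqle*, -0.45 (-0.70 to -0.21) for *Lss*, -0.00 (-0.04 to 0.04) for *Cyp51*, 0.06 (-0.03 to 0.14) for *Tm7sf2* and 0.11 (0.06 to 0.16) for *Msmo1*. *Nsdhl* had 0.02 (-0.13 to 0.17), *Hsd17b7* -0.16 (-0.50 to 0.19) and *Ebp* -0.06 (-0.19 to 0.07). In astrocytes *Acat2* had -0.08 (-0.49 to 0.33) and *Dhcr7* -0.00 (-0.27 to 0.27), and *Ggps1* had -0.25 (-0.74 to 0.23) in OPC and -0.18 (-0.39 to 0.03) in neurons.

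In endothelial cells 3 members passed the rule. *Insig1* had 41.0 CPM in Control and 24.7 CPM in SC300, or -0.73 (-1.17 to -0.29), *Insig2* had 15.0 and 6.68 CPM, or -1.17 (-2.02 to -0.36), and *Stard4* had 29.3 and 17.0 CPM, or -0.78 (-1.32 to -0.26). The other control and transport members there did not pass it, with *Srebf2* at -0.26, *Scap* at 0.25, *Npc1* at -0.23 and *Npc2* at -0.24. The lower values rested on 112 and 74, 41 and 20, and 80 and 51 UMIs. In the endothelial and mural mixture the ratios were -0.37 (-0.94 to 0.21), -0.08 (-0.90 to 0.75) and -0.41 (-1.11 to 0.29). Immediate-early genes, which respond to dissociation, summed to 8086 CPM in Control and 5818 CPM in SC300 endothelial cells, and their part in the result was not tested. After thinning, *Insig2* was 1.00 (-0.73 to 2.93). In the types where they were highest, *Insig1* had -0.09 (-0.27 to 0.10) in NFO, *Insig2* -0.65 (-1.38 to 0.07) in NFO and -0.20 (-0.65 to 0.26) in microglia, and *Scap* -0.10 (-0.21 to 0.01) in astrocytes.

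*Apoe* differed in opposite directions among the types. In tanycytes it had 12582 CPM in Control and 5848 CPM in SC300, or -1.10 (-1.13 to -1.08). The difference was spread over the cells, since the median per cell was 11857 and 5132 CPM, and 4843 and 1976 CPM at the 10th percentile. The 8 markers used to assign astrocytes, the main source of *Apoe*, summed to 1564 and 1199 CPM in tanycytes. That is 6.59% and 5.66% of their astrocyte level, whereas *Apoe* stood at 34.1% and 15.4% of its astrocyte level. The 5 astrocyte check markers, however, had 1137 and 649 CPM in tanycytes, against 3061 and 2926 CPM in astrocytes. They were thus also lower in SC300 tanycytes, and the part of RNA shared with or carried in from astrocytes was not tested. Marker levels also differed between the 236 Control and 139 SC300 tanycytes. *Crym*, on which the label mostly rests, was at 3051 and 4165 CPM, *Frzb* at 345 and 230 CPM and *Vim* at 3228 and 2465 CPM. Whether the make-up of the tanycytes differed, and its part in the result, was not tested. The *Apoe* ratio was -0.91 when every cell was weighted alike.

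In microglia *Apoe* was higher in SC300, with 4474 and 6317 CPM, or 0.50 (0.47 to 0.53), which stayed under 1.5-fold. The median per cell was 4117 and 5849 CPM. Astrocyte markers were at 0.493% and 0.653% of their astrocyte level there, and *Apoe* at 12.1% and 16.7%. OPC also stood above the astrocyte markers, with *Apoe* at 8.37% and 7.89% of its astrocyte level and the markers at 2.15% in both libraries, and had a ratio of -0.05 (-0.10 to 0.00). In astrocytes themselves the ratio was 0.04 (0.03 to 0.04), and in endothelial cells and the mixture 0.10 (0.07 to 0.13) and 0.09 (0.05 to 0.12). The astrocyte markers were at 1.62% and 3.37% of their astrocyte level in endothelial cells and at 1.70% and 2.38% in the mixture, and their part in these ratios was not tested. In NFO (820 and 442 CPM), ependymal cells, neurons and mature oligodendrocytes *Apoe* stood at 0.711% to 5.42% of its astrocyte level and the astrocyte markers at 1.07% to 8.14% of theirs. At these shares, *Apoe* carried in from astrocytes was not told apart from *Apoe* of the cells themselves. In ependymal cells it was uneven, with a Control median per cell of 474 CPM beside a 90th percentile of 10455 CPM, and SC300 values of 605 and 5331 CPM. The NFO ratio of -0.89 (-1.03 to -0.76) rested on few cells, since 3 cells held 55.8% of the Control UMIs, and without the 3 leading cells of each library it was -0.16 (-0.34 to 0.02).

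*Abcg1* was higher in SC300 microglia, with 22.6 and 41.1 CPM (77 and 146 UMIs), or 0.86 (0.45 to 1.28), and was detected in 12.4% and 23.0% of them. It was 0.37 (0.02 to 0.72) in endothelial cells and 0.45 (0.03 to 0.88) in the mixture, but -0.15 (-0.33 to 0.03) in mature oligodendrocytes, 0.13 (-0.24 to 0.50) in OPC and -0.21 (-0.44 to 0.03) in neurons. *Abca1* had -0.05 (-0.13 to 0.03) in astrocytes, its highest type, and -0.30 (-0.64 to 0.04) in microglia. The lysosomal genes differed little, with *Npc2* at -0.17 (-0.21 to -0.13) in microglia and *Npc1* at -0.24 (-0.36 to -0.12) in mature oligodendrocytes. *Soat1* had 0.39 (-0.09 to 0.87) in astrocytes and *Cyp46a1* -0.35 (-0.63 to -0.07) in neurons.

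Genes around the pathway were counted by the same rule, for which 2.84% of pairs over all genes were lower and 2.54% higher. Of 9 fatty acid synthesis genes, 6 pairs with a type were lower and 2 higher among 55 measured. *Scd2*, a stearoyl-CoA desaturase, had 790 and 463 CPM in tanycytes, or -0.77 (-0.88 to -0.67), but 581 and 967 CPM in endothelial cells, or 0.74 (0.65 to 0.82). Both *Acss2*, which makes acetyl-CoA, and *Scd* were lower in astrocytes, at -0.70 (-0.83 to -0.57) and -0.76 (-0.88 to -0.63). *Fads1*, a desaturase of polyunsaturated fatty acids, was lower in tanycytes (-0.60), ependymal cells (-2.27) and microglia (-0.75).

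Among LXR genes outside the members, 2 of 38 pairs were lower and none higher, and both lower pairs were *Srebf1*, which governs fatty acid synthesis, with 97.8 and 38.5 CPM in tanycytes, or -1.35 (-1.71 to -0.995), and 145 and 93.5 CPM in ependymal cells, or -0.63 (-0.90 to -0.36). Of the oxysterol and bile acid enzymes, 2 of 12 pairs were lower and 3 higher. *Ch25h*, which makes 25-hydroxycholesterol, had 1216 and 425 CPM in microglia, or -1.52 (-1.60 to -1.43), but 63.7 and 109 CPM in the mixture, or 0.78 (0.43 to 1.13). *Cyp27a1*, which makes 27-hydroxycholesterol, had 12 and 47 UMIs in mature oligodendrocytes, or 1.5 (0.56 to 2.55). Genes of uptake and the lysosome (39 pairs) and of sterol movement between membranes (47 pairs) had no pair past the rule, and the SREBP processing genes had 1 higher pair of 26, *Mbtps1* in astrocytes. Immediate-early genes had 5 lower and 9 higher pairs of 65, and haemoglobin genes, which mark RNA of blood cells, 24 lower and 12 higher of 41. The haemoglobin pairs include *Hba-a2* more than once per type, because the symbol has more than 1 row. For all these lists the share over all genes was 2.84% lower and 2.54% higher.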

How the data were processed

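Single-cell 3′ libraries of the hypothalamus, 1 Control and 1 SC300, each from 3 pooled rats, were analysed. The deposited tables hold UMI counts per gene and cell barcode, which the authors made with Cell Ranger (version 3.0.1 in the submitters' processing notes) from uniquely mapped reads on an Ensembl transcriptome. Barcodes with at least 200 detected genes were kept, leaving 4296 of 4488 and 4379 of 4524, with 51382276 and 56390355 UMIs. The study used the same minimum but gives fewer cells of each group for its clustering. Cells were assigned by marker gates. The scoring rule of the gates was set with the data in view. The 31 members and all gene lists were chosen with earlier results of these data known. Of 8 haemoglobin symbols, 4 had a row, and the rest were not used here. No doublet caller was run. Left out were 180 barcodes with a next-best marker score above 0.5 of the best, and 511 that passed no gate. Pairs of neighbouring oligodendrocyte stages were exempt and took the best-scoring stage. Endothelial and mural pairs were exempt too and formed the endothelial and mural mixture (100 and 106 barcodes). Its median depth was 13040 and 17192 UMIs, against 6079 and 7252 in endothelial cells, and doublets in it were not told apart. Of 548 tanycyte or ependymal cells, 56 lay within 0.1 of the line that divides them. Macrophages, mural, stromal and haemoglobin-rich cells had too few cells or were blood-derived and were not compared. The libraries shared 9 barcode sequences.

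UMIs were summed per type and scaled to CPM. Levels carry exact Poisson and ratios exact conditional binomial 95% intervals, which cover counting error only. A ratio was read with at least 50 UMIs, and 1.5-fold with the interval on one side counted as lower or higher. Every member is named with its highest and lowest type, and its ratio is given where it passed this rule and where it was highest. With 1 library per group no test was run. Scripts (Python 3.11.15, numpy 2.4.6, scipy 1.17.1, pandas 2.3.3, matplotlib 3.10.9) were tested on simulated data. Alternatives were other gates, filters, scalings, weightings, thinning, UMI minimums and a 2-fold limit. Promoter windows came from RefSeq (GRCr8).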

Additional observations from a re-analysis of the deposited data

Results flagged for a closer look

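The SC300 over Control ratio of *Apoe*, which encodes the lipid carrier apolipoprotein E, went in opposite directions among cell types. The log2 ratio was -1.105 in tanycytes and -0.892 in NFO. *Apoe* was also lower in SC300 ependymal cells (1999 CPM in Control and 1364 CPM in SC300) and neurons (325 and 269 CPM). The ratio was 0.0386 in astrocytes, 0.325 in mature oligodendrocytes, 0.498 in microglia, 0.0983 in endothelial cells and 0.0866 in the endothelial and mural mixture. The difference between these types was not tested, since each group is 1 library. In NFO the value rested on few cells. In NFO, mature oligodendrocytes, ependymal cells and neurons *Apoe* stood near or below the share of the astrocyte markers, as given in the report.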

How the results depend on the processing

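Of 202 alternative values of the members past the rule, 177 moved by less than the counting interval, 23 moved further and 2 changed sign. For the synthesis sum between libraries the numbers were 99, 16 and 4 of 119, and between types 36, 28 and 0 of 64. The cause of these shifts was not tested. The 15 lower pairs became 5 after thinning to 2000 UMIs, which left out 558 shallower cells, and 2 with a 2-fold limit. The 2 higher pairs became 1 with at most 20% mitochondrial UMIs or a minimum of 100 UMIs, 4 with at most 10% mitochondrial UMIs and 0 with the 2-fold limit. Shares over all genes at these settings are not given here, so these counts have no background beside them. The tools of count models were not run, because they need replicates.

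The log2 ratio of the synthesis sum, SC300 over Control, with at most 10% mitochondrial UMIs was -0.0795 in tanycytes, -0.17 in astrocytes, -0.20 in ependymal cells, -0.52 in endothelial cells, 0.18 in NFO, 0.37 in mature oligodendrocytes and 0.15 in neurons. With at most 20% it was -0.0578 in astrocytes. After thinning it was 0.0147 in NFO and 0.0626 in the mixture. With every cell weighted alike it was -0.10 in NFO, -0.20 in ependymal cells and 0.0159 in mature oligodendrocytes. With median of ratios scaling it was 0.0067 in neurons and 0.0154 in mature oligodendrocytes, and with totals without mitochondrial, haemoglobin and ribosomal protein genes 0.0319 in the latter. The looser gate gave 0.15 in NFO, and mixed barcodes given to the highest type 0.0374. Without the leading synthesis gene it was -0.29 in tanycytes and 0.0306 in mature oligodendrocytes.

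For mature oligodendrocytes over astrocytes, the log2 ratio of the sum in Control and SC300 was 1.33 and 1.87 with at most 10% mitochondrial UMIs, 1.27 and 1.40 with cells weighted alike and 1.25 and 1.38 with the reduced totals. It was 1.35 in SC300 with at most 20% and 1.27 in Control after thinning. For NFO over OPC it was 1.24 and 1.38 with at most 10%, 1.08 and 1.06 after thinning and 1.10 and 1.00 with cells weighted alike, and 1.61 in SC300 with the looser gate. For astrocytes over neurons it was 1.23 and 0.91 with at most 10%, 1.27 and 1.16 after thinning, 1.23 and 1.19 with cells weighted alike and 1.11 and 1.03 with the reduced totals, and 1.15 in SC300 with at most 20%.

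Among the members, thinning gave 0.0847 for *Fdft1* in tanycytes, 1.00 for *Insig2* in endothelial cells, -1.39 for *Srebf2* in tanycytes and -0.52 in NFO, -1.56 for *Sc5d* in ependymal cells, -3.24 for *Fdft1* in the mixture, and -0.95 and -0.31 for *Apoe* in tanycytes and NFO. The thinned totals were 200000 and 210000 UMIs in the mixture and 190000 and 140000 in ependymal cells. The values of *Fdft1* and *Sc5d* there thus rested on few UMIs. With at most 10% mitochondrial UMIs, tanycytes had -1.72 for *Srebf2*, -1.44 for *Sc5d*, -0.15 for *Fdft1* and -1.25 for *Apoe*, and NFO -1.79 for *Apoe*. Over the other settings that moved it, *Apoe* ran from -1.21 to -0.91 in tanycytes and from -1.17 to -0.16 in NFO. For the synthesis sum of NFO cells with a high over a low mature-marker level, the alternatives were added after the data had been seen. No paired analysis was possible because each group is 1 library and no test was run, and for the same reason no replicate could be left out.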
